A study of Mus musculus with 6 samples.

Results

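The genes of vascular tone described here are 9 members of the endothelin, nitric oxide, prostanoid and angiotensin systems, chosen by name out of 49315 genes in a table of read counts: Edn1, Ece1, Ednra, Ednrb, Nos3, Ptgs1, Ptgis, Ace and Agtr1a. All 9 were found, each under 1 name, and all had at least 10 reads in the higher library of every comparison, so none was lost to the filter on low counts. Lungs of male C57BL/6J mice (genotype C57BL/6 in the labels) were taken 21 days after oropharyngeal instillation of sterile saline (sham-treated) or of Bleomycin sulfate (BLM-treated), an agent that breaks DNA and is used to bring about lung fibrosis in mice. Cells of dissociated lung were left unsorted or were sorted by Lamp1, a lysosomal membrane protein, on the cell surface into Lamp1-enriched and Lamp1-depleted cells, and polyA RNA was sequenced. There was 1 library for each of the 6 conditions. Between 2 and 3 lungs of a group were pooled in a tube, so animals cannot be told apart and no spread between mice could be estimated.

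Blood vessels set their diameter through signals that pass between the endothelium and the contractile cells around it. Endothelial cells make endothelin, which contracts muscle cells through the receptor encoded by Ednra and is cleared, or acts on the endothelium itself, through that encoded by Ednrb. They also make the dilators nitric oxide and prostacyclin, and the lung capillary bed carries much of the angiotensin-converting enzyme of the body. Endothelium of the lung is known to strongly express Ednrb and Ace, while pericytes and smooth muscle cells are known to carry Ednra.

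The stretch of 250 bases before the transcription start is shown for 4 members that differ in their pattern below: Edn1 and Ace, which had their highest level in BLM Lamp1-enriched cells, Ednra, the only member above both sorted fractions in unsorted cells of both treatments, and Ptgs1, whose BLM to sham ratio differed in sign between fractions. The sequences come from RefSeq on GRCm38.p6, are written 5′ to 3′ on the strand of the gene, and end just before the start. Capitals mark GGAAG, the core letters bound by ETS factors, which on the other strand reads CTTCC, and TATAAA, the TATA box, which on the other strand reads TTTATA. The positions are chr13:42301226-42301475 on the plus strand for Edn1, chr8:77724453-77724702 on the minus strand for Ednra, chr2:36230176-36230425 on the plus strand for Ptgs1 and chr11:105967698-105967947 on the plus strand for Ace.
Edn1: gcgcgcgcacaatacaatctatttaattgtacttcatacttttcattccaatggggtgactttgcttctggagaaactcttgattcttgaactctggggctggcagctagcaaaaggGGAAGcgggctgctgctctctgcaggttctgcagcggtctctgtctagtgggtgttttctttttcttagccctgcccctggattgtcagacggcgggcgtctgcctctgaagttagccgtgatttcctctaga
Ednra: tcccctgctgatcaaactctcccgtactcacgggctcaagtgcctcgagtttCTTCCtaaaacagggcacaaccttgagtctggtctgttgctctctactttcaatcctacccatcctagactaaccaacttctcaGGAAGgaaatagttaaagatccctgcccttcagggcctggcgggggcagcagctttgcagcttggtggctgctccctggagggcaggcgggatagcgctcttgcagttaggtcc
Ptgs1: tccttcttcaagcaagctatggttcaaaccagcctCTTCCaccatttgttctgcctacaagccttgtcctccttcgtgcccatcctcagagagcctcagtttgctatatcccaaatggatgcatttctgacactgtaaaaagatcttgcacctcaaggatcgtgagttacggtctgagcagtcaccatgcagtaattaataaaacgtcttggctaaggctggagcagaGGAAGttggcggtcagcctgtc
Ace: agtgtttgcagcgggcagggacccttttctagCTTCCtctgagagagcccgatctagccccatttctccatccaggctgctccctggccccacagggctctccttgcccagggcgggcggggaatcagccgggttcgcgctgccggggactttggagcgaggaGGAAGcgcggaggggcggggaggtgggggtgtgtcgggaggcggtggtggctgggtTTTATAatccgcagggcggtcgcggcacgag
All 4 windows held GGAAG on at least 1 strand, as did 64.1% of 32851 mouse promoter windows of the same length. The TATA box letters were found in the Ace window alone, on the minus strand from -31 to -26 counted from the start, and 12.4% of all windows held them on either strand. The AP-1 letters TGACTNA, held by 11.7% of all windows, were found on neither strand of these 4. The same was true of AGATAA, bound by factors such as Gata2 and held by 9.99% of windows, and of ACGTG, the core of the hypoxia response element, held by 16.6%. No matches overlapped. These are matches of letters only.

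Counted reads per library ranged from 30236120 to 52918696. In the BLM Lamp1-depleted library 38.4% of reads came from 1 gene, Gm26917 (named because of this value), which took at most 7.10% elsewhere, and the TMM factor there was 0.699 against 0.993 to 1.19 in the others. Levels below are counts per 1000000 reads (CPM) of the library size corrected by these TMM factors. Scaling by total counts in place of TMM shifted the median log2 ratio of all genes by 0.55 in BLM Lamp1-enriched over Lamp1-depleted cells, by -0.72 in Lamp1-depleted cells of BLM over sham, and by -0.26 in unsorted cells. The sort was visible in marker genes. Lamp1 itself was higher in Lamp1-enriched than in Lamp1-depleted cells with log2 ratios of 1.75 for sham and 1.77 for BLM, and the endothelial genes Pecam1 and Cdh5 by 2.25 and 2.97 in sham and by 2.56 and 3.71 in BLM. Ptprc, the common leukocyte antigen, was lower, at -3.68 and -2.87. Set against unsorted cells, however, Lamp1 RNA in Lamp1-enriched cells was higher in sham only, at a log2 ratio of 0.62. In BLM it was lower, at -0.41 (378 CPM against 501 CPM in unsorted cells).

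The endothelin ligand was most abundant in Lamp1-enriched cells. Edn1 (ENSMUSG00000021367, chr13:42301476-42307990, GRCm38), a protein-coding gene for the precursor of endothelin, had 2493 reads (51.4 CPM) in sham unsorted, 449 (9.85 CPM) in sham Lamp1-depleted and 5033 (109 CPM) in sham Lamp1-enriched cells. In BLM the values were 1518 reads (38.5 CPM) in unsorted, 131 (6.20 CPM) in Lamp1-depleted and 7310 (134 CPM) in Lamp1-enriched cells. Both Lamp1-enriched libraries lay above all 4 others, and the lowest level was in BLM Lamp1-depleted cells, 21.6-fold below the highest.

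Ece1 (ENSMUSG00000057530, chr4:137862237-137965229), whose product cuts the precursor to active endothelin, had the second highest median level per exon length. It had 17273 reads (356 CPM) in sham unsorted, 3862 (84.7 CPM) in sham Lamp1-depleted and 31853 (692 CPM) in sham Lamp1-enriched cells. The BLM libraries had 6125 (155 CPM), 1166 (55.2 CPM) and 23582 reads (433 CPM) in the same order. Within each fraction the BLM library was lower than the sham library.

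The endothelin receptors differed from the ligand. Ednra (ENSMUSG00000031616, chr8:77663031-77724464), the contractile receptor, had 1900 reads (39.1 CPM) in sham unsorted, 296 (6.49 CPM) in sham Lamp1-depleted and 1351 (29.4 CPM) in sham Lamp1-enriched cells. With BLM it had 640 (16.2 CPM), 77 (3.64 CPM) and 813 reads (14.9 CPM). Its highest level was thus in unsorted cells. In BLM the counting intervals of the unsorted and Lamp1-enriched levels overlapped at their ends, though neither level lay within the other's interval. Ednrb (ENSMUSG00000022122, chr14:103814625-103844402), the receptor of endothelium, had 14173 reads (292 CPM), 3033 (66.5 CPM) and 15733 (342 CPM) in the sham libraries in that order. In BLM it had 3381 (85.7 CPM), 307 (14.5 CPM) and 7738 reads (142 CPM), so that every BLM library was below the sham library of its fraction, and BLM Lamp1-enriched below sham unsorted cells.

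Nos3 (ENSMUSG00000028978, chr5:24364810-24384474), the endothelial nitric oxide synthase, stood the other way round. In sham it had 958 reads (19.7 CPM) in unsorted, 131 (2.87 CPM) in Lamp1-depleted and 1360 (29.6 CPM) in Lamp1-enriched cells, and in BLM 1056 (26.8 CPM), 116 (5.49 CPM) and 3823 (70.1 CPM). Each BLM library was above its sham counterpart. The counting intervals of the sham Lamp1-enriched and BLM unsorted levels overlapped at their ends, though neither level lay within the other's interval. Of the 9 members, Nos3 alone was above sham in all 3 BLM fractions.

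Among the prostanoid genes, Ptgs1 (ENSMUSG00000047250, chr2:36230426-36252272), the constitutive cyclooxygenase, had 1891 reads (39.0 CPM) in sham unsorted, 296 (6.49 CPM) in sham Lamp1-depleted and 4096 (89.0 CPM) in sham Lamp1-enriched cells. The BLM values were 2763 (70.0 CPM), 202 (9.56 CPM) and 2794 reads (51.3 CPM). The highest level was in sham Lamp1-enriched cells, but in BLM the unsorted library was the highest. Ptgis (ENSMUSG00000017969, chr2:167191805-167240604), which makes prostacyclin, was low throughout, with 522 reads (10.8 CPM), 75 (1.65 CPM) and 603 (13.1 CPM) in sham and 207 (5.25 CPM), 14 (0.663 CPM) and 397 (7.28 CPM) in BLM.

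Ace (ENSMUSG00000020681, chr11:105967945-105989964), the enzyme that forms angiotensin II and breaks down bradykinin, had 61973 reads (1277 CPM) in sham unsorted, 18904 (415 CPM) in sham Lamp1-depleted and 115988 (2521 CPM) in sham Lamp1-enriched cells. The BLM libraries had 44540 (1129 CPM), 5945 (281 CPM) and 186721 reads (3426 CPM). Like Edn1, it was highest in BLM Lamp1-enriched and lowest in BLM Lamp1-depleted cells. Agtr1a (ENSMUSG00000049115, chr13:30336441-30382867), a receptor of angiotensin II, had the lowest median level per exon length, with 342 reads (7.04 CPM), 66 (1.45 CPM) and 435 (9.45 CPM) in sham and 49 (1.24 CPM), 7 (0.331 CPM) and 119 (2.18 CPM) in BLM. All 3 BLM libraries were below the sham library of their fraction, and the level in BLM unsorted cells was as low as in sham Lamp1-depleted cells within the counting intervals.

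Per kilobase of exon, the median level over the 6 libraries (RPKM, the CPM divided by exon length) was 228 for Ace, 48.2 for Ece1, 26.7 for Ednrb, 11.6 for Ptgs1, 5.63 for Nos3, 2.84 for Ednra, 2.44 for Ptgis and 0.652 for Agtr1a. On this scale Edn1, with a range of 2.90 to 62.7, had its median between those of Ednrb and Ptgs1. Ace spanned 53.2 to 648 and lay above every other member in every library. Exons of Edn1, Ednra, Nos3, Ptgs1, Ptgis and Ace overlap a gene on the opposite strand, and whether strand was used in counting is not given in the sources used here. The partner with the most reads was Gm15587 beside Nos3, with 27 to 655 reads per library.

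**Figure D1:**
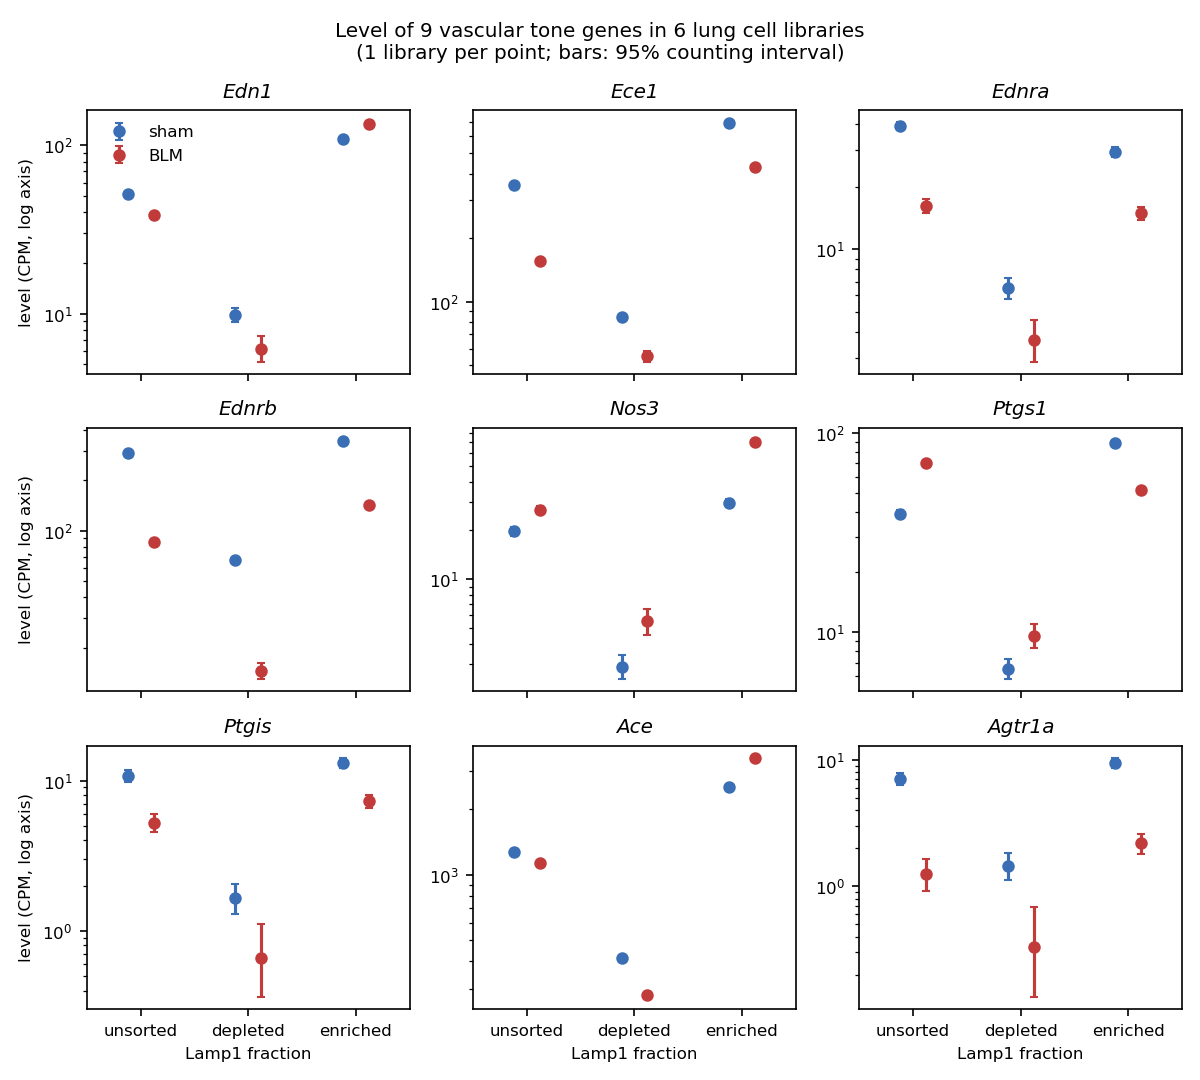
Level of each gene in CPM on a log axis, for unsorted, Lamp1-depleted and Lamp1-enriched cells of sham-treated (blue) and BLM-treated (red) mice, with 1 library per point and bars for the 95% counting interval. The Lamp1-depleted library was the lowest of its treatment for all 9 genes, and Nos3 was the gene whose red points lay above the blue in all 3 fractions.

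Which of these genes went with surface Lamp1 was asked by setting Lamp1-enriched against Lamp1-depleted cells. All 9 were at least 2-fold higher in Lamp1-enriched cells of sham, where 27.5% of 21867 genes were higher and 25.2% lower, and all 9 in BLM, where 34.4% of 21838 genes were higher and 22.6% lower. The members had median log2 ratios of 2.98 and 3.29, beside -0.01 and 0.29 over all genes. Of all genes past 2-fold in either direction in BLM, 60.3% were higher, or 74.7% when scaled by total counts only.

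In sham the ratio was largest for Ptgs1, with a log2 ratio of 3.77 (95% counting interval 3.61 to 3.95), followed by Edn1 at 3.47 (3.33 to 3.62) and Nos3 at 3.36 (3.10 to 3.63). The endothelin receptors had the smallest ratios, 2.17 (1.99 to 2.36) for Ednra and 2.36 (2.31 to 2.42) for Ednrb. Between these lay Ece1 at 3.03, Ptgis at 2.98, Agtr1a at 2.70 and Ace at 2.60. These intervals cover counting error only and compare libraries, not conditions.

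In BLM the order changed. Edn1 had the largest log2 ratio, 4.43 (4.19 to 4.70), while Nos3 was at 3.67, Ace at 3.61, Ptgis at 3.44 and Ednrb at 3.29. Ece1 was at 2.97, Agtr1a at 2.68 (1.63 to 4.07, from 7 reads in Lamp1-depleted cells), Ptgs1 at 2.42 and Ednra at 2.03. BLM minus sham, the sorting ratio was larger by 0.96 (0.67 to 1.25) for Edn1, 0.93 (0.75 to 1.10) for Ednrb and 1.0 (0.96 to 1.05) for Ace on the log2 scale, and fell by 1.35 (-1.62 to -1.09) for Ptgs1. The median difference over 20463 genes was 0.22. The interval included 0 for Ece1, Ednra, Nos3, Ptgis and Agtr1a, and was widest for Agtr1a (-1.18 to 1.14). These intervals leave out the choice of scaling, and all rest on the BLM Lamp1-depleted library. With total counts only, the median sorting ratio of all genes shifted by 0.55 in BLM and by -0.17 in sham. Which intervals include 0 thus depends on the scaling.

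**Figure D2:**
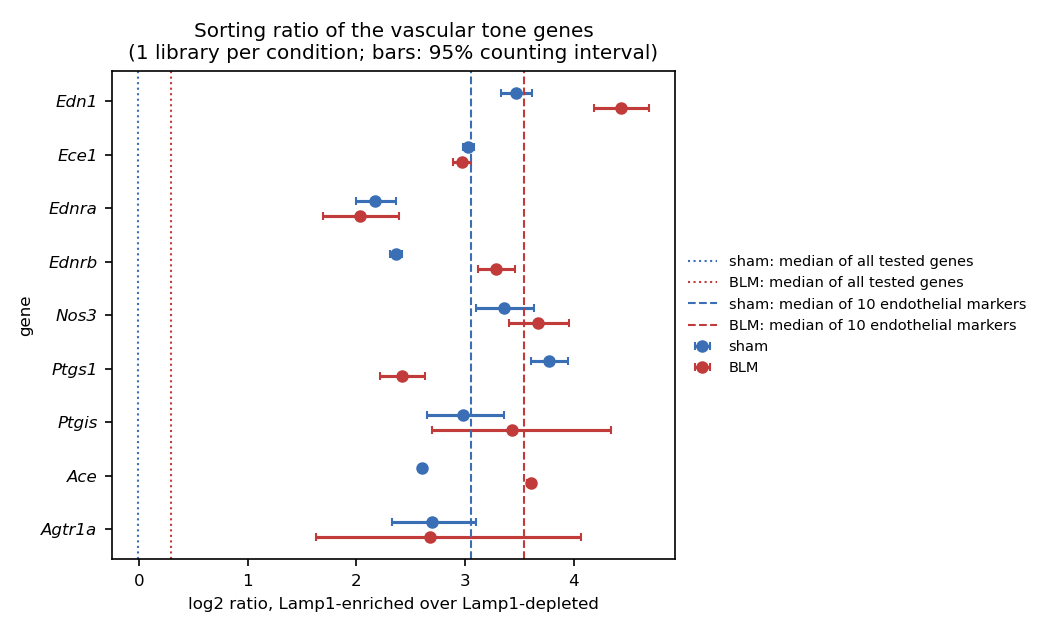
Log2 ratio of Lamp1-enriched over Lamp1-depleted cells for each gene in sham (blue) and BLM (red), 1 library per condition, with bars for the 95% counting interval; dotted lines are the medians of all tested genes and dashed lines the medians of 10 endothelial markers. All 9 genes lay above 2 in both treatments, and Ptgs1 moved from 3.77 in sham to 2.42 in BLM while Edn1 moved from 3.47 to 4.43.

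Over both treatments together, the 4 sorted libraries allowed a test in which sham and BLM served as the repeats. By edgeR's quasi-likelihood test with Benjamini-Hochberg adjustment over 20593 genes, all 9 members were higher in Lamp1-enriched cells at an adjusted p under 0.05, as were 21.5% of all genes, while 19.2% were lower. Edn1 had a log2 fold change of 3.85 (edgeR adjusted p = 9.75e-22), Nos3 of 3.42 (3.13e-17) and Agtr1a, the member with the largest p, of 2.63 (3.70e-05). The other log2 fold changes were 2.90 for Ece1, 2.01 for Ednra, 2.72 for Ednrb, 3.01 for Ptgs1, 3.11 for Ptgis and 3.01 for Ace. With total counts only, the adjusted p of the members ranged from 3.66e-05 to 0.015 and the calls over all genes split into 64.7% higher in place of 52.7%, and with all 6 libraries in the fit it ranged from 4.39e-05 to 0.000867. This test had 1 residual degree of freedom, with the spread pooled across genes. Its p-values therefore measure no spread between mice of a treatment. The members had also been chosen with earlier results of these data known.

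The same contrast held for markers of several cell types. All 10 endothelial markers were at least 2-fold higher in Lamp1-enriched cells of both treatments, with medians of 3.06 for sham and 3.54 for BLM on the log2 scale, and their summed level ran from 1352 CPM in sham Lamp1-depleted to 9432 CPM in sham Lamp1-enriched and from 935 to 9083 CPM in BLM, with none at 0. All 7 pericyte markers were also higher (medians 2.85 and 2.24, summed level 35.0 against 290 CPM in sham and 27.3 against 116 CPM in BLM). Platelet markers were higher for 9 of 9 in sham and 8 of 9 in BLM (medians 4.60 and 2.5, summed level 84.6 against 1164 and 67.3 against 192 CPM, with Treml1 at 0 in BLM Lamp1-depleted cells). Fibroblast markers were higher for 6 of 8 in sham and 8 of 8 in BLM. Smooth muscle markers were higher for 4 of 5 and 6 of 6, and epithelial markers for 7 of 8 and 5 of 8. Lymphocyte markers were lower for 8 of 8 in both (medians -4.09 and -3.60, summed level 2041 against 112 and 373 against 32.7 CPM). Pan-leukocyte markers were lower for 5 of 5 in sham and 4 of 5 in BLM. Of 7 macrophage markers 1 was higher and 2 lower in sham, and 2 were higher and 0 lower in BLM. Mesothelial markers were lower for 3 of 4 in sham and higher for 3 of 4 in BLM. Their part in the ratios of the 9 genes was not tested, and in bulk RNA fewer cells of a type and less RNA per cell cannot be told apart.

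Relative to the summed reads of the 10 endothelial markers in the same library, the members separated. Edn1 was higher in Lamp1-enriched than in Lamp1-depleted cells by 0.67 (0.53 to 0.81) in sham and 1.15 (0.90 to 1.40) in BLM on the log2 scale. Ednra was lower, at -0.62 (-0.81 to -0.44) and -1.25 (-1.58 to -0.91). Ednrb was lower in sham, at -0.44, with an interval that included 0 in BLM, and Ptgs1 was higher in sham, at 0.98, and lower in BLM, at -0.86. This measure does not depend on the scaling between libraries, but its size, and for some members its direction, depended on the reference list. Against 5 general capillary markers in place of the 10, Edn1 had 0.20 (0.06 to 0.34) in sham and 0.22 (-0.03 to 0.47) in BLM, and Ednrb -0.91 and -0.93. Against 5 markers of aerocytes, the gas-exchanging capillary cells, Edn1 had 0.69 in sham and 2.07 (1.82 to 2.33) in BLM. On that list Ednrb was at -0.42 in sham but at 0.92 (0.75 to 1.10) in BLM. Nos3 in BLM was at 0.39 against the endothelial and at -0.54 against the general capillary markers. Against the pericyte markers in BLM, Ednrb was at 1.21 (1.0 to 1.41) and Ptgs1 at 0.34 (0.10 to 0.58).

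Unsorted cells should hold both fractions, and their level lay between the sorted libraries for 8 of 9 members in sham, as for 52.2% of all genes, and for 7 of 9 in BLM, as for 55.6%. In sham these 8 lay 39.3 to 81.8% of the way from the Lamp1-depleted to the Lamp1-enriched level. Summed lymphocyte markers were at 125 CPM in sham unsorted, 2041 in Lamp1-depleted and 112 in Lamp1-enriched cells. Summed macrophage markers lay above both sorted fractions, at 434 CPM in sham unsorted, 163 in Lamp1-depleted and 119 in Lamp1-enriched cells. In BLM they were at 2855, 264 and 350 CPM in that order. Whether the unsorted libraries were a mix of the sorted fractions was not tested. No member was below both, as 22.1% of all genes were in sham and 18% in BLM. Ednra was above both in each treatment, as were 25.7% of all genes in sham and 26.4% in BLM, and its level in Lamp1-enriched over unsorted cells was -0.41 (-0.52 to -0.31) in sham and -0.12 (-0.27 to 0.03) in BLM as a log2 ratio. Ptgs1 was above both in BLM only, and whether this differs from sham could not be tested with 1 library per condition.

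Set against unsorted cells, which leaves the BLM Lamp1-depleted library aside, Lamp1-enriched cells were at least 2-fold higher for 2 of 9 members in sham (2.55% of 22323 genes) and for 4 of 9 in BLM (12.6% of 22149 genes). In sham these were Edn1 at a log2 ratio of 1.09 and Ptgs1 at 1.19, and Ace at 0.98 and Ece1 at 0.96 lay just short of 2-fold. With total counts only, none passed in sham (1.70% of all genes). With DESeq2 size factors or without Gm26917, 3 did (2.77% of all genes in each case), Ace being at 1.01 and 1.0. In BLM they were Edn1 at 1.80, Ace at 1.60, Ece1 at 1.48 and Nos3 at 1.39.

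The second question of the design is how BLM-treated lungs differed from sham-treated ones. In unsorted cells the endothelin receptors, Ece1, Ptgis and Agtr1a were lower in BLM, and no member was 2-fold higher. Thus 5 of 9 were at least 2-fold lower, where 16% of 22772 genes were, and 0 were higher, where 13.9% were. Agtr1a had a log2 ratio of -2.49 (-2.97 to -2.07), Ednrb of -1.77 (-1.82 to -1.71), Ednra of -1.27 (-1.40 to -1.14), Ece1 of -1.20 (-1.24 to -1.15) and Ptgis of -1.03 (-1.27 to -0.80). Edn1 was at -0.42, Ace at -0.18, Nos3 at 0.44 and Ptgs1 at 0.85. The median of the members was -1.03 beside -0.07 over all genes, of whose calls 46.6% were higher, or 32.4% with total counts only.

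In Lamp1-enriched cells 1 member, Nos3, was at least 2-fold higher in BLM, where 10.2% of 21671 genes were, with a log2 ratio of 1.25 (1.16 to 1.34). There 2 members were at least 2-fold lower, where 7.81% of genes were: Agtr1a at -2.11 (-2.42 to -1.82) and Ednrb at -1.27 (-1.31 to -1.23). Ednra at -0.98 (-1.10 to -0.85) lay just short of 2-fold. Ptgis was at -0.85, Ptgs1 at -0.80, Ece1 at -0.68, Edn1 at 0.29 (0.24 to 0.35) and Ace at 0.44 (0.43 to 0.45). The 2 endothelin receptors and the angiotensin receptor were thus lower in BLM while the ligand Edn1 and the enzyme Ace were slightly higher, by 1.23-fold and 1.36-fold.

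In Lamp1-depleted cells 3 members were at least 2-fold lower in BLM, where 22.3% of 20852 genes were, and 0 were higher, where 13.7% were. These were Ednrb at a log2 ratio of -2.19 (-2.37 to -2.02), Agtr1a at -2.09 (-3.50 to -1.0) and Ptgis at -1.30 (-2.25 to -0.48). With total counts only, 7 members were at least 2-fold lower, where 46.9% of all genes were, and the median of all genes was -0.92. Under that scaling Ptgs1 went from 0.56 to -0.16, and the share of all calls that were higher went from 38.1% to 12.7%. Nos3, at 0.93, passed 2-fold with DESeq2 size factors. All values of this comparison rest on the library with 38.4% of its reads on Gm26917.

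**Figure D3:**
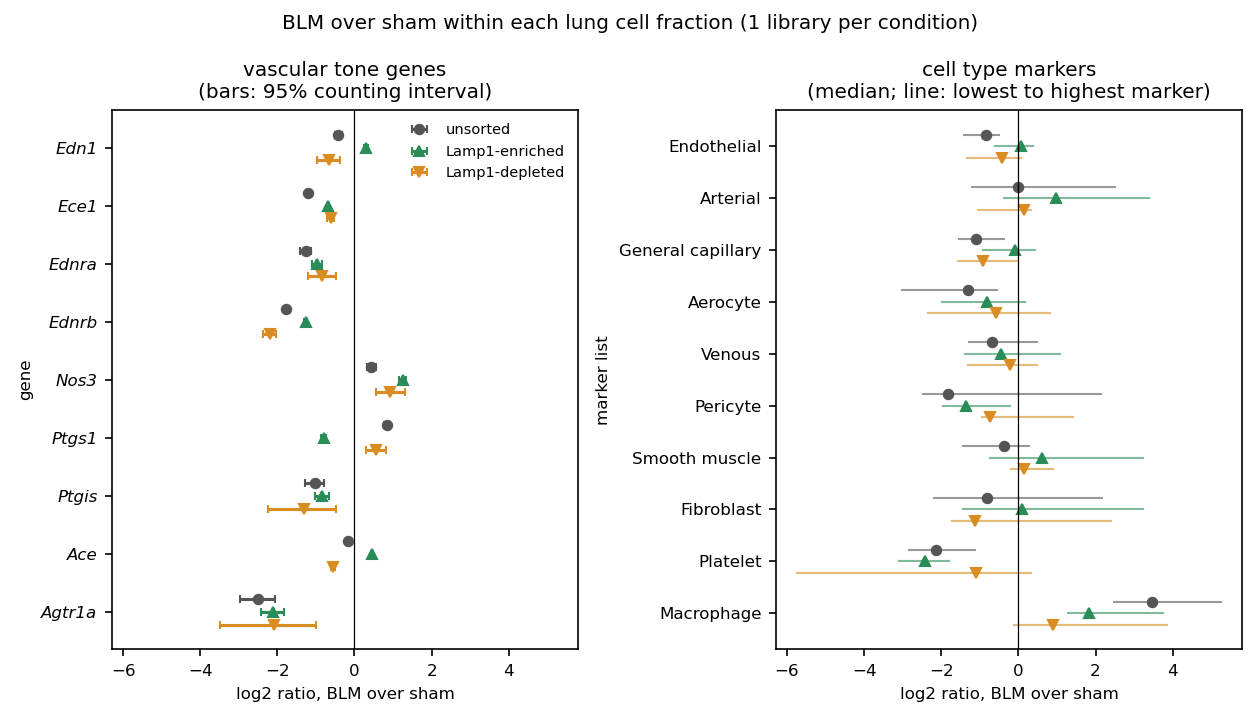
Log2 ratio of BLM over sham in unsorted (grey circles), Lamp1-enriched (green upward triangles) and Lamp1-depleted cells (orange downward triangles), for the 9 genes with 95% counting intervals on the left and for marker lists on the right, where the symbol is the median and the line runs from the lowest to the highest marker. Agtr1a and Ednrb lay below -1 in all 3 fractions, Nos3 lay above 0 in all 3, and the macrophage markers had a median of 3.46 in unsorted cells.

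Cell type markers moved between sham and BLM as well. In unsorted cells 10 endothelial markers had a median log2 ratio of -0.84, with 4 at least 2-fold lower and summed levels of 5927 CPM in sham and 3428 CPM in BLM, but in Lamp1-enriched cells the median was 0.06, with 0 past 2-fold and sums of 9432 and 9083 CPM. Pericyte markers were at least 2-fold lower for 6 of 7 in unsorted (median -1.84, summed level 251 in sham and 140 CPM in BLM) and 5 of 7 in Lamp1-enriched cells (-1.36, 290 and 116 CPM). In unsorted cells the remaining pericyte marker was higher in BLM, at 2.15. Of the endothelial subtypes, the aerocyte list, 5 genes of the gas-exchanging capillary cell, had medians of -1.32 in unsorted and -0.82 in Lamp1-enriched cells (summed level 908 and 490 CPM, then 996 and 825 CPM), and the arterial list of 6 genes had -0.01 and 0.98 (611 and 389 CPM, then 935 and 1157 CPM). Smooth muscle markers, 6 genes of the other cell type known for Ednra, had medians of -0.38 and 0.62 (69.5 and 39.7 CPM, then 74.7 and 76.1 CPM), with Cnn1 at 0 in BLM Lamp1-depleted cells. The part of these lists in the changes of the 9 genes was not tested.

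Markers of cells that are known to express Ptgs1 also differed. Platelet markers were at least 2-fold lower in BLM for 9 of 9 in unsorted (median -2.15, summed level 357 in sham and 76.9 CPM in BLM) and in Lamp1-enriched cells (-2.42, 1164 and 192 CPM), none at 0. Macrophage markers were higher for 7 of 7 in both (medians 3.46 and 1.84, summed level 434 and 2855 CPM in unsorted, 119 and 350 CPM in Lamp1-enriched cells). By CPM, Ptgs1 was higher in BLM unsorted and lower in BLM Lamp1-enriched cells. Relative to the summed platelet marker reads it was higher in both, at 3.06 (2.96 to 3.16) and 1.80 (1.73 to 1.88) on the log2 scale. Relative to the endothelial markers it was at 1.64 and -0.74, so its direction in Lamp1-enriched cells depended on the reference list. The part of the platelet and macrophage lists in the values of Ptgs1 was not tested.

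Counted per 1000 reads of the 10 endothelial markers, Nos3 stood at 3.33 in sham unsorted and 7.81 in BLM unsorted cells and at 3.13 and 7.72 in Lamp1-enriched cells. Its log2 ratio of BLM over sham on this measure was 1.23 (1.10 to 1.36) in unsorted and 1.30 (1.21 to 1.39) in Lamp1-enriched cells, so both fractions gave nearly the same value. Against the pericyte markers the Nos3 values were further apart, at 1.28 in unsorted and 2.57 in Lamp1-enriched cells. Edn1 was at 8.66 and 11.2 in unsorted and 11.6 and 14.8 in Lamp1-enriched cells, with log2 ratios of 0.37 (0.28 to 0.47) and 0.35 (0.30 to 0.40). For Edn1 and Ace, which were below 0 in unsorted cells by CPM, the ratio was thus above 0 on this measure. Ace was at 215 and 329 in unsorted and 267 and 377 in Lamp1-enriched cells, with log2 ratios of 0.61 and 0.50.

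The receptors were also lower in BLM relative to the endothelial markers. Ednrb was at 49.3 in sham and 25.0 in BLM unsorted cells and at 36.3 and 15.6 in Lamp1-enriched cells, with log2 ratios of -0.98 (-1.03 to -0.92) and -1.21 (-1.25 to -1.17). Agtr1a was at 1.19 and 0.362, then 1.0 and 0.240, with log2 ratios of -1.71 (-2.15 to -1.28) and -2.06 (-2.35 to -1.77). Ednra had -0.48 and -0.92, Ece1 -0.41 and -0.62, and Ptgis -0.25 and -0.79. Against the pericyte markers in place of the endothelial ones, Ednra had -0.43 (-0.56 to -0.29) in unsorted and 0.35 (0.21 to 0.48) in Lamp1-enriched cells. The summed pericyte reads include 1 marker that was higher in BLM unsorted cells, at 2.15, where the median of the list was -1.84. Ednra, at -1.27 by CPM, thus fell by more than the sum in unsorted cells but by less than the median marker. In Lamp1-enriched cells the direction of Ednra, Ece1 (0.65) and Ptgis (0.48) thus depended on the reference list, and Ednrb was at 0.06, with an interval that included 0. Agtr1a was below 0 against both lists in both, at -1.66 in unsorted and -0.79 in Lamp1-enriched cells against the pericyte markers.

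**Figure D4:**
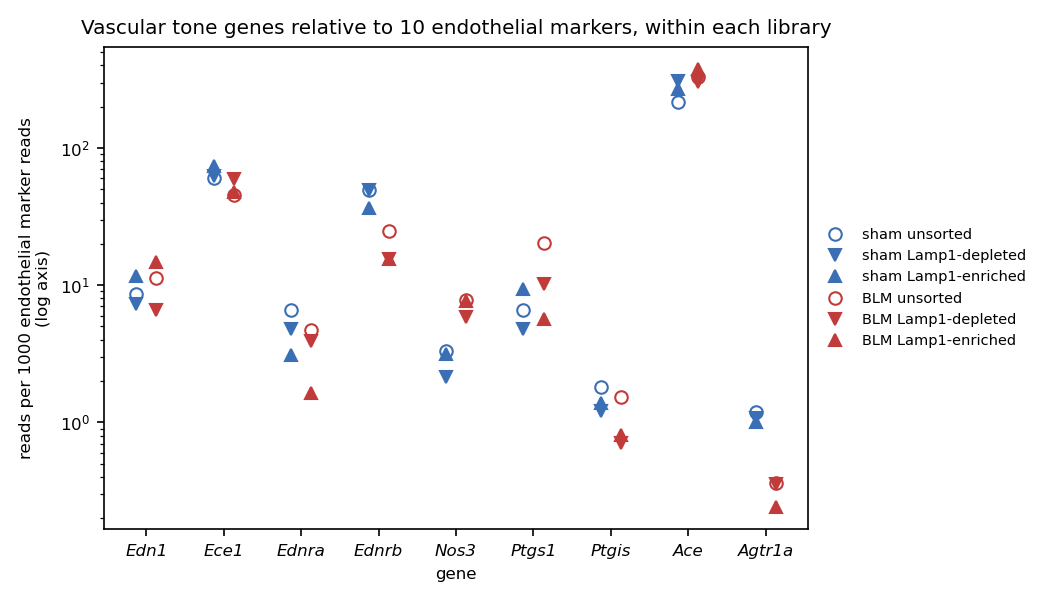
Reads of each gene per 1000 reads of 10 endothelial markers in the same library, on a log axis, for the 3 sham (blue) and 3 BLM (red) libraries; open circles are unsorted cells and downward and upward triangles Lamp1-depleted and Lamp1-enriched cells. For Nos3 the 3 BLM libraries lay at 5.87 to 7.81 and the 3 sham libraries at 2.12 to 3.33, and for Agtr1a the BLM libraries lay at 0.240 to 0.362 and the sham libraries at 1.0 to 1.19.

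Ratios between members within a library need no scaling. Per exon length, Edn1 over Ednrb was 0.351 (0.336 to 0.366) in sham unsorted and 0.895 (0.842 to 0.952) in BLM unsorted cells, 0.295 and 0.851 in Lamp1-depleted cells, and 0.638 (0.618 to 0.659) and 1.88 (1.82 to 1.95) in Lamp1-enriched cells. The ligand thus lay below its endothelial receptor in all 3 sham libraries and above it in BLM Lamp1-enriched cells. Edn1 over Nos3 went the other way, from 5.03 to 2.78 in unsorted, 6.62 to 2.18 in Lamp1-depleted and 7.15 to 3.69 in Lamp1-enriched cells. Ednra over Ednrb was 0.104 and 0.147 in unsorted cells and 0.0669 and 0.0819 in Lamp1-enriched cells, so that Ednrb exceeded Ednra in every library.

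Other genes of vascular tone were described from a list of 54, leaving out the members. Of 44 in the quasi-likelihood test, 27 were higher and 3 lower in Lamp1-enriched cells, beside 21.5% and 19.2% of all genes. Among them were 14 higher and 1 lower of 19 in the nitric oxide and cGMP group, 5 and 1 of 12 prostanoid genes, 3 and 0 of 4 angiotensin and kinin genes, 4 and 1 of 7 adrenomedullin and apelin genes, and 1 and 0 of 2 endothelin genes. In sham 30 of 47 were at least 2-fold higher and 6 lower, beside 27.5% and 25.2% of all genes, and in BLM 28 of 45 and 5, beside 34.4% and 22.6%.

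In sham the largest log2 ratios among those with at least 50 reads were 4.23 for Gucy1a2, a subunit of the nitric oxide receptor guanylate cyclase, 3.77 for Ddah2, 3.66 for Hpgd, which degrades prostaglandins, and 3.41 for Cav1, the coat protein of caveolae. In BLM they were 5.13 for Calcrl, the receptor of adrenomedullin, 4.68 for Npr3, the clearance receptor of natriuretic peptides, 4.38 for Aplnr, the apelin receptor, and 4.31 for Hpgd. The smallest in sham were -3.10 for Ptger4, -1.73 for Ramp1, -1.60 for Arg1 and -1.36 for Ptger2, and in BLM -1.93 for Arg2, -1.90 for Ptger4, -1.40 for Ramp1 and -1.0 for Ptger2. Ptger4 and Ptger2 encode receptors of prostaglandin E2.

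Between BLM and sham unsorted cells, 11 of 46 listed genes were at least 2-fold higher and 16 lower, beside 13.9% and 16% of all genes, and their median log2 ratio was -0.49 beside -0.07. The largest were 5.38 for Arg1, an arginase that uses the substrate of nitric oxide synthases, 3.08 for Ptgir, the prostacyclin receptor, 2.65 for Tbxas1, thromboxane synthase, and 2.54 for Nos2, the inducible nitric oxide synthase. Arg1 had 59 reads in sham and 2020 in BLM unsorted cells. The smallest were -2.87 for Edn3, another endothelin, with 165 and 18 reads, -2.45 for Hpgd, -2.45 for Npr3 and -2.39 for Gucy1b1, the shared subunit of guanylate cyclase. Nos2, like Nos3, was also higher in Lamp1-enriched cells of BLM, at 3.37, with 271 reads in sham and 3331 in BLM.

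For each member the 3 genes with the most similar profile were taken from 17935 genes with at least 50 reads, by the root mean square difference of log2 CPM over the 6 libraries after centring. Edn1 was closest to Aplnr (0.11), Dchs1 and Acer2, Nos3 to Spry4 (0.06), Mboat2 and Tcim, and Ace to Itga6 (0.12), Arl15 and Cdh4. Ednra was closest to Bmp5 (0.09), Adcy5 and Vldlr, Ednrb to Cx3cl1 (0.13), Abi3bp and Irs1, and Ece1 to Zik1 (0.10), Jam3 and Ehd4. Ptgis was closest to Slc18b1 (0.12), Col12a1 and Kitl, and Agtr1a to Fmo2 (0.13), Cyp4b1 and Pcdhac2. Ptgs1 had the most distant neighbours, Scamp1 (0.24), S100a1 and Cd9. With 6 points that share their libraries, such closeness is a description only.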

How the data were processed

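The authors deposited raw counts of reads per gene for 6 libraries, read in pairs of 150 bases, with no normalization. The submitters' processing notes name Trimmomatic 0.36, STAR 2.5.2b, featureCounts of Subread 1.5.2, DESeq2 and GRCm38; the annotation release is not given in the sources used here. Samples were mapped to conditions by their labels. Of 49315 Ensembl genes, 48970 were found in GENCODE M21, which gave positions and exon lengths.

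TMM factors came from edgeR 4.0.16 (R 4.3.3) over the 6 libraries. Log2 ratios used a prior count of 0.5 and genes whose higher library held 10 or more reads (Python 3.11.15, numpy 2.4.6, scipy 1.17.1, pandas 2.3.3). Their 95% intervals are Clopper-Pearson intervals of the share of reads and cover counting error only, since reads are not known to be independent molecules. With 1 library per condition no p-value was computed for sham or BLM separately, and 2-fold (a log2 ratio of 1) was a fixed rule of size. The quasi-likelihood test of the 4 sorted libraries kept genes by filterByExpr, had treatment as a block and infinite prior degrees of freedom, and used a threshold of 0.05. Programs were tested on simulated data.

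The members, marker lists and pathway list were chosen with earlier results of these data known. Named were all 9 members with their 3 nearest profiles, Pecam1, Cdh5, Ptprc and Lamp1, and of the pathway list up to 4 genes at each end of the sorting ratios and of BLM over sham in unsorted cells among those with at least 50 reads. The value of Nos2 in Lamp1-enriched cells was chosen after it was seen. Ramp2, Apln and Aplnr are in both the pathway and the marker lists. Of 8 macrophage markers, 7 were found by name. Promoter windows came from RefSeq and were found for 6 of 9 members; Nos3, Ptgis and Agtr1a had none. Alternatives were size factors of DESeq2 1.42.0, scaling by total counts only, raising the prior count to 2, requiring 1 or 50 reads, moving the log2 threshold to 2 or 3, thinning to the smallest total and leaving out Gm26917. For the test, a Wald test in DESeq2, every gene with a read and all 6 libraries were also tried.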

Additional observations from a re-analysis of the deposited data

Results flagged for a closer look

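Values are listed here where BLM over sham, or Lamp1-enriched over unsorted, pointed in opposite directions in different libraries. Each rests on 1 library per condition, and the differences between fractions or treatments were not tested.

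Edn1 had a log2 ratio of BLM over sham of -0.42 in unsorted and -0.67 in Lamp1-depleted cells but 0.29 in Lamp1-enriched cells. Ace had -0.18 in unsorted and -0.56 in Lamp1-depleted cells but 0.44 in Lamp1-enriched cells. In unsorted cells the 10 endothelial markers had a median of -0.84, and in Lamp1-enriched cells of 0.06.

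Ptgs1 had a log2 ratio of BLM over sham of 0.85 in unsorted and 0.56 in Lamp1-depleted cells but -0.80 in Lamp1-enriched cells, and the value in Lamp1-depleted cells became -0.16 with total counts only. Lamp1-enriched over unsorted, Ptgs1 was at 1.19 in sham and at -0.45 in BLM.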

How the results depend on the processing

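No paired analysis was possible because the labels number no replicates and each condition has 1 library, so that beyond the treatment block of the test of the sorted libraries nothing pairs samples and there was no replicate to leave out. Without either treatment the test of the sorted libraries had no residual degree of freedom. All 9 members kept their calls in that test under its 5 alternatives.

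With 3 as the log2 threshold, 4 members in sham and 5 in BLM were higher in the Lamp1-enriched than in the Lamp1-depleted library. This was in place of 9 and 9, and 6.19% and 10.7% of all genes were higher. The counts of members past the threshold in all other comparisons became 0, where at most 3.90% of all genes passed it in a given direction. At a log2 ratio of at least 2, 1 member was lower in BLM unsorted cells (4.99% of all genes). In BLM Lamp1-enriched cells 0 were higher (3.57%) and 1 was lower (2.05%). In Lamp1-enriched over unsorted cells 0 were higher in sham (0.43%) or BLM (2.34%). With DESeq2 size factors 1 member was higher in BLM Lamp1-depleted cells, where 16.4% of all genes were. With total counts only, 7 were lower there, where 46.9% of all genes were. With that scaling 0 were higher in the Lamp1-enriched over the unsorted library of sham (1.70% of all genes). The test then called 2872 genes higher and 1564 lower in place of 4422 and 3964.

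Of the ratios of single members, 258 values under an alternative moved by less than their counting interval and 57 moved by more, 39 of them with total counts only. The only direction that changed was that of Ptgs1 in Lamp1-depleted cells. Depth limited Agtr1a and Ptgis most, at 7 and 14 reads in BLM Lamp1-depleted cells.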
